A study of Homo sapiens with 4 samples.

Results

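The genes described here encode the proteins of the mitochondrial ribosome, followed in HT29 cells treated to raise or to block the microRNA miR-23b. They were picked by name alone, as every gene identifier whose symbol is MRPL or MRPS followed by a number and at most 1 further letter. The rule found 78 gene identifiers under 77 distinct symbols among the 53617 gene identifiers of each deposited table, and no measured value entered it. Of these, 77 reached a mean of 1 FPKM in both comparisons. The exception was MRPS16P, a processed pseudogene whose symbol also fits the pattern, listed at 0.064 FPKM in the precursor control and at 0 in the other libraries.

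HT29 is an established human colon adenocarcinoma cell line. Cultures at passage 12 to 13 were transfected at 90% confluency with 50 nM of a miR-23b precursor, a synthetic RNA that supplies the microRNA, or of a control precursor. Others received an antimir, an oligonucleotide that binds and blocks miR-23b, or a control antimir, with the same lipid reagent and at the same dose. Total RNA was taken 48 h after transfection, and each of the 4 groups is 1 library, so no value below has a replicate or a test of its own. The series set out to find mRNAs that respond to miR-23b.

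Mitochondria carry their own ribosome, which makes the few proteins still encoded by mitochondrial DNA, all of them parts of the respiratory chain and of ATP synthase. The RNAs of this ribosome come from mitochondrial DNA, but every one of its proteins is encoded in the nucleus, made in the cytosol and imported. Some of these proteins descend from bacterial ribosomal proteins, and others have no bacterial counterpart and were added during the evolution of mitochondria. A large subunit joins amino acids and a small subunit reads the mRNA. Loss of single members is known to cause inherited failure of the respiratory chain in humans.

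A microRNA lowers its targets by pairing its seed, the bases near its 5′ end, with sites in their 3′ UTRs. The sequence of the microRNA is shown because it sets the site searched for below, and its capitals mark the seed, bases 2 to 8. It was taken from RefSeq (GRCh38.p14, plus strand, chr9:95085265-95085287).
hsa-miR-23b-3p: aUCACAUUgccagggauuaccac

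The longest annotated 3′ UTR of 8 of the 76 member genes with one held the 7-mer AATGTGA, which pairs with that seed. That is 10.5%, against 18.4% of 19140 genes, and the median 3′ UTR had 509.5 bases in the members and 1101 bases over all those genes. The 8 genes were MRPL17, MRPL35, MRPL38, MRPL42, MRPS11, MRPS25, MRPS33 and MRPS35, and MRPL35 held the 7-mer at 2 places. A match is a description of the letters, not evidence of a working site. Only the longest 3′ UTR of a gene was searched, so its other transcripts may not hold the 7-mer. Sites of 3 of these genes are shown 5′ to 3′ on the mRNA's strand, as DNA letters from GENCODE 29 transcripts (GRCh38), because MRPS25 had the lowest difference of all members with the precursor and because the second MRPL35 site and the MRPL38 site are followed by an A. Capitals mark the 7-mer.
MRPS25: ttaattagagaaAATGTGAggattttataa
MRPL35, first site: gttagctcaagcAATGTGAcattatttcaa
MRPL35, second site: atgatttttttaAATGTGAaataaacagtg
MRPL38: ggtggggtggggAATGTGAataaacatgat

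All 77 genes past the filter were present at moderate to high levels. A gene's level is its FPKM, a read density per length of transcript and per size of library, summed over its transcripts. The median member had 64.5 FPKM with the precursor and 64.8 FPKM in its control, and 54.2 FPKM with the antimir and 53.8 FPKM in its control. Together the members held 0.235% of all FPKM with the precursor and 0.231% in its control, and 0.352% with the antimir and 0.326% in its control. The highest member stood 21.7-fold above the lowest in the precursor library and 23.3-fold in its control, although the mature ribosome holds most of these proteins in equal number. In the antimir library the span was 22.8-fold and in its control 28.5-fold. The lowest in the antimir control was ENSG00000173867 at 10.6 FPKM, a second MRPL46 entry whose transcript GENCODE 29 gives to another gene. MRPL34 came next there at 15.7 FPKM. The 2 tables were normalised separately, so levels are compared between genes or within a table.

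MRPL13, a large-subunit protein with a bacterial counterpart, was the most abundant member in each library, with 359 FPKM with the precursor and 398 FPKM in its control, and 373 FPKM with the antimir and 302 FPKM in its control. MRPL51, a mitochondria-specific protein of the large subunit, came next by mean level, with 294 FPKM with the precursor and 301 FPKM in its control, and 222 FPKM with the antimir and 213 FPKM in its control. The small-subunit protein MRPS33 had 237 FPKM with the precursor and 249 FPKM in its control, and 207 FPKM with the antimir and 189 FPKM in its control. MRPL3, MRPS35 and MRPL48 completed the top 6, with mean levels of 184, 184 and 166 FPKM over the 4 libraries, and the first 2 of them do not differ by more than the libraries do. The lowest were MRPL34 at a mean of 16.6 FPKM, MRPL44 at 17.9 FPKM, a second MRPL46 entry at 19.3 FPKM and MRPL50 at 19.7 FPKM.

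**Figure D1:**
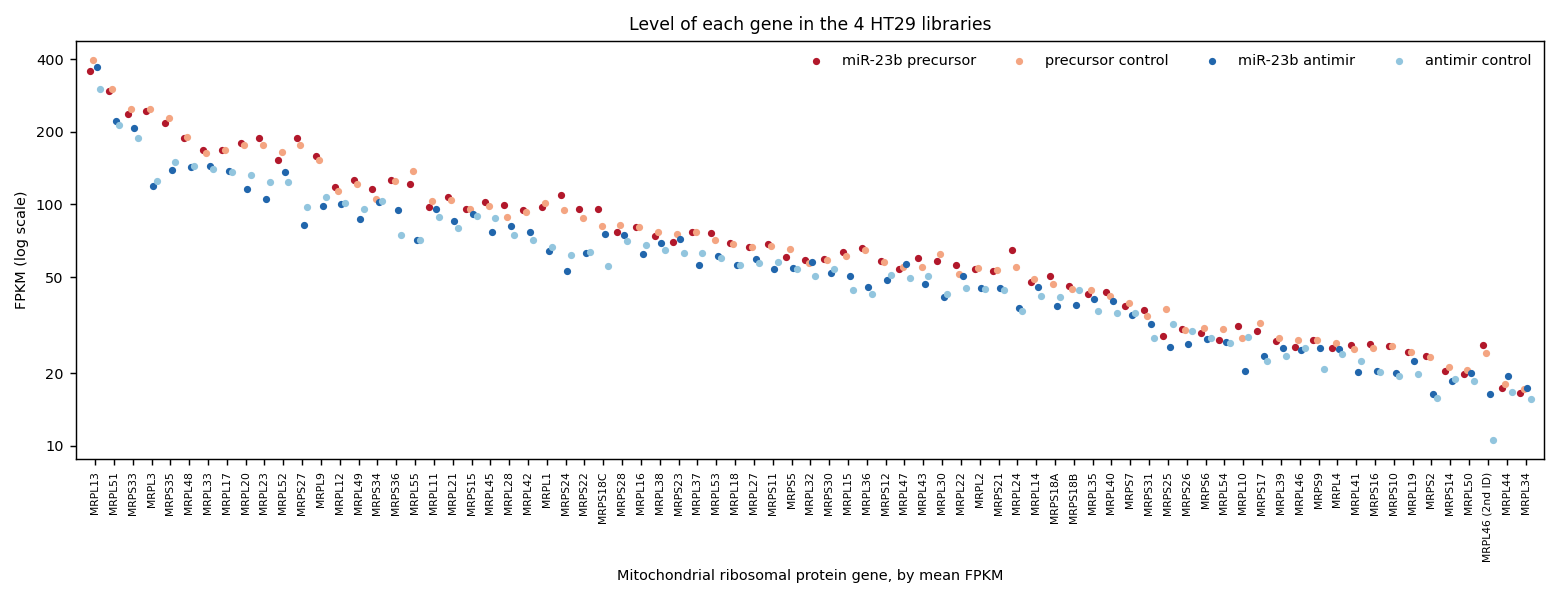
FPKM (log axis) of each of the 77 genes in each library, ordered by the mean over the 4 libraries, with the precursor, its control, the antimir and its control from left to right at each gene; MRPL46 has 2 gene identifiers and "2nd ID" marks ENSG00000173867. MRPL13 stands highest and MRPL34 lowest, and the treated and control points of a gene lie close together next to the span between genes.

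Levels did not set the subunits far apart. The 50 large-subunit members had a median of 66.3 FPKM with the precursor and 65.7 FPKM in its control, and the 26 small-subunit members 55.7 and 55.4 FPKM in the same libraries. MRPS36 is counted apart, because it is now known as a subunit of the α-ketoglutarate dehydrogenase complex and not of the ribosome. The order of the genes was close to the same in treated and control libraries, with Pearson's r of log2 FPKM across the 77 genes of 0.996 for the precursor and its control and 0.986 for the antimir and its control. These are correlations across genes of single libraries, and genes are not independent replicates.

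With the miR-23b precursor the members hardly differed from the control. A difference is log2(FPKM + 1) of the treated library minus that of its control, centred on the median of all genes whose FPKM averaged 1 or more over both libraries. On this scale the median member stood at -0.018 and 29 of 77 members lay above 0. The median of the 5762 protein-coding genes in the same range of FPKM was 0.0072, and 52.0% of them lay above 0. The shift removed by centring, 0.022, was larger than the members' median: without centring that median was 0.0048 and 41 of 77 lay above 0.

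The spread of the members was narrow. Of the 77, 76 (98.7%) lay within 0.25 of 0 with the precursor, against 90.7% of the protein-coding genes in the same range of FPKM. In that band lay 97.6% of 82 cytosolic ribosomal protein genes and 87.5% of 16 mitochondrial translation factors. The narrow spread was therefore not particular to the members. No member was past 1.5-fold in either direction, whereas 3.36% of all 16982 genes were at least 1.5-fold higher and 3.32% at least 1.5-fold lower. Over protein-coding genes those shares were 0.529% higher and 0.617% lower, so a count of 0 among 77 members is near the share for protein-coding genes.

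The lowest member with the precursor was MRPS25, a mitochondria-specific protein of the small subunit, with 28.5 FPKM with the precursor and 36.9 FPKM in its control, a difference of -0.39. It lies on chromosome 3, within chr3:14860469-15106842 (hg19, the region of overlapping genes that the deposited table gives). Next came MRPL55, which had 121 FPKM with the precursor and 137 FPKM in its control, a difference of -0.20. MRPL13 followed at -0.17, MRPL54 at -0.17, MRPS23 at -0.13 and MRPS17 at -0.13. MRPL54 and MRPS23 are mitochondria-specific proteins of the large and the small subunit, and MRPS17 is a small-subunit protein with a bacterial counterpart. MRPS25 is the member furthest from the others.

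The highest member was MRPS18C, one of the human relatives of bacterial ribosomal protein S18 and the one that takes its place in the small subunit, with 96.1 FPKM with the precursor and 81.3 FPKM in its control, a difference of 0.22. It lies within chr4:84377085-84444501 (hg19). MRPL24, a large-subunit protein with a bacterial counterpart, had 64.5 FPKM with the precursor and 55.1 FPKM in its control, a difference of 0.20. MRPS24, a small-subunit protein, had 110 FPKM with the precursor and 95.1 FPKM in its control, a difference of 0.18. MRPL28 stood at 0.14, MRPL10 at 0.13 and MRPS34 at 0.11. MRPL10 belongs to the stalk of the large subunit where elongation factors dock, MRPL28 to the body of the same subunit, and MRPS34 to the mitochondria-specific part of the small subunit.

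With the antimir more of the members stood above the control. Here 54 of 77 members lay above 0 and their median was 0.063, against a median of -0.0032 and 49.1% above 0 for 5703 protein-coding genes in the same range of FPKM. Without centring, which had added 0.038, the members' median was 0.025 and 44 of 77 lay above 0. The spread was wider than in the other comparison: 69 of 77 members (89.6%) lay within 0.25 of 0, against 84.1% of the protein-coding genes in that range. The standard deviation across members was 0.16 with the antimir and 0.095 with the precursor. In bulk RNA a difference between cultures in the kinds of cells and a difference in RNA per cell cannot be told apart.

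A single entry was past 1.5-fold with the antimir, in the higher direction, and none in the lower. Over all 14190 genes, 5.07% were at least 1.5-fold higher and 2.9% at least 1.5-fold lower, and over protein-coding genes the shares were 1.75% and 0.886%. That entry, ENSG00000173867, carries the symbol MRPL46 and had 16.4 FPKM with the antimir and 10.6 FPKM in its control, a difference of 0.63. With the precursor it had 26.1 FPKM, against 24.3 FPKM in the precursor control. GENCODE 29 gives its only transcript to AC013489.1 as a processed transcript. The other MRPL46 identifier, which holds the protein of the large subunit, had 24.9 FPKM with the antimir and 25.4 FPKM in its control, so the count past 1.5-fold does not concern an mRNA of the mitochondrial ribosome as GENCODE 29 draws it.

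The next highest with the antimir was again MRPS18C, with 75.1 FPKM with the antimir and 55.4 FPKM in its control, a difference of 0.47. MRPS36 had 95.01 FPKM with the antimir and 74.7 FPKM in its control, a difference of 0.38. MRPL13 had the 373 and 302 FPKM given above, a difference of 0.34. MRPS9, a small-subunit protein with a bacterial counterpart, stood at 0.32. MRPL44, a mitochondria-specific protein of the large subunit with a fold related to RNase III, stood at 0.25. MRPS23, which had been among the lowest with the precursor, stood at 0.24.

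MRPL10 was the lowest with the antimir, with 20.4 FPKM with the antimir and 28.3 FPKM in its control, a difference of -0.41. MRPS25 had 25.7 FPKM with the antimir and 31.8 FPKM in its control, a difference of -0.26. MRPS27, a mitochondria-specific small-subunit protein of the pentatricopeptide-repeat family, had 82.4 FPKM with the antimir and 97.3 FPKM in its control, a difference of -0.20. MRPL23, a large-subunit protein at the exit of the peptide tunnel, stood at -0.19, MRPS24 at -0.18 and MRPS18B at -0.16. MRPS18B is another of the S18 relatives, and it stood on the other side of 0 from MRPS18C here.

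**Figure D2:**
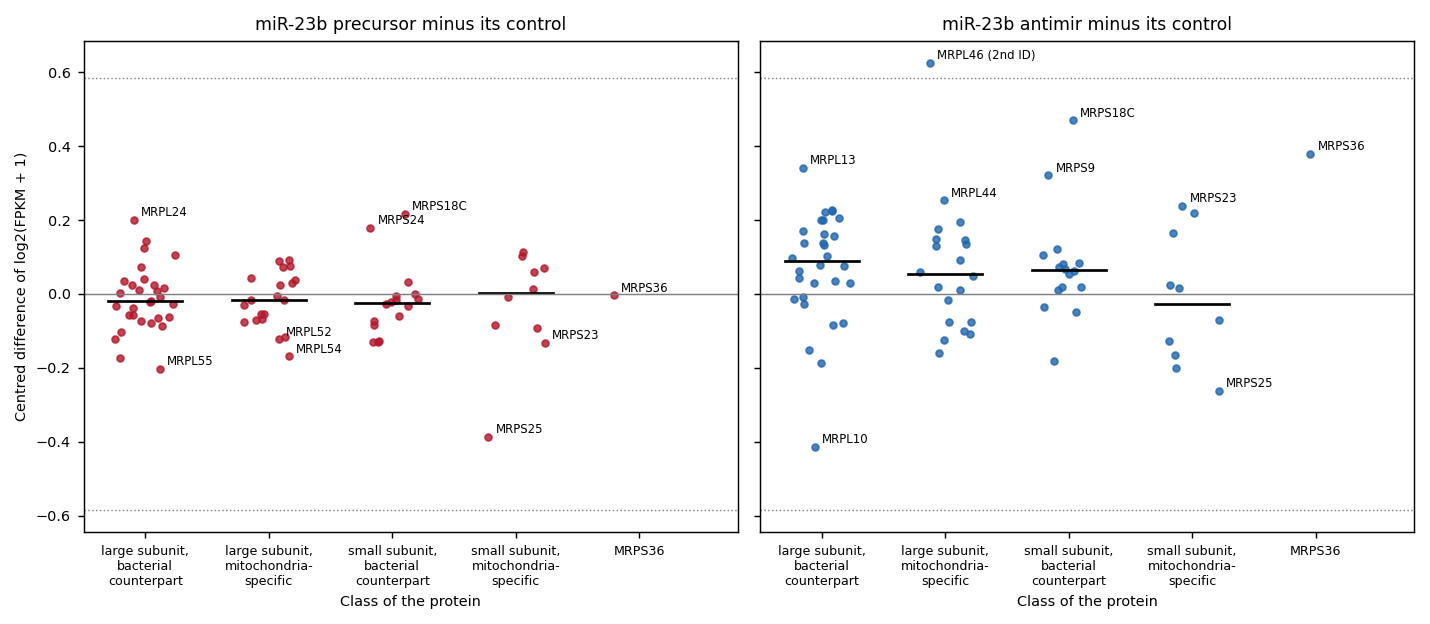
Centred difference of log2(FPKM + 1) between treated library and control for each member, by class of protein, for the precursor (left) and the antimir (right). Black bars are medians of the class and dotted lines mark 1.5-fold. The antimir points spread more widely, and the 1 point past a dotted line is the second MRPL46 identifier.

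By class, the medians differed little. The large subunit stood at -0.018 with the precursor and at 0.077 with the antimir, and the small subunit at -0.020 and 0.040. Of the 30 large-subunit proteins with a bacterial counterpart, 13 lay above 0 with the precursor and 22 with the antimir. Of the 20 without one, 8 lay above 0 with the precursor and 13 with the antimir. The 16 small-subunit proteins with a bacterial counterpart had 3 above 0 with the precursor and 13 with the antimir, at medians of -0.025 and 0.066. The 10 mitochondria-specific proteins of the small subunit were evenly split, with 5 above 0 in either comparison, at medians of 0.0029 and -0.027. No class was past 0.1 in its median in either direction, MRPS36 aside.

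The members that stood out included some with the same sign in both comparisons and some with opposite signs. Each comparison has its own control library, so the 2 differences of a gene share no measurement. Of the 77 members, 37 lay below 0 with the precursor and above 0 with the antimir, 12 the other way round, 17 above 0 in both and 11 below 0 in both. In all, 48 members lay below 0 with the precursor and 54 above 0 with the antimir. From those totals alone the first of these groups would be the largest. The same counts were not taken over all genes. Across members, Pearson's r between the 2 differences was -0.022 and Spearman's rho was -0.19, given as a description of 77 genes from 4 libraries. MRPS18C was the highest member with the precursor and the next to highest with the antimir, and MRPS25 was the lowest and the next to lowest. MRPL10 was 0.13 with the precursor and -0.41 with the antimir, MRPS24 was 0.18 and -0.18, MRPS23 was -0.13 and 0.24, and MRPL13 was -0.17 and 0.34, so these 4 had opposite signs. For MRPL10 this depends on the sum over transcripts, since by its most abundant transcript it was -0.33 with the precursor.

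**Figure D3:**
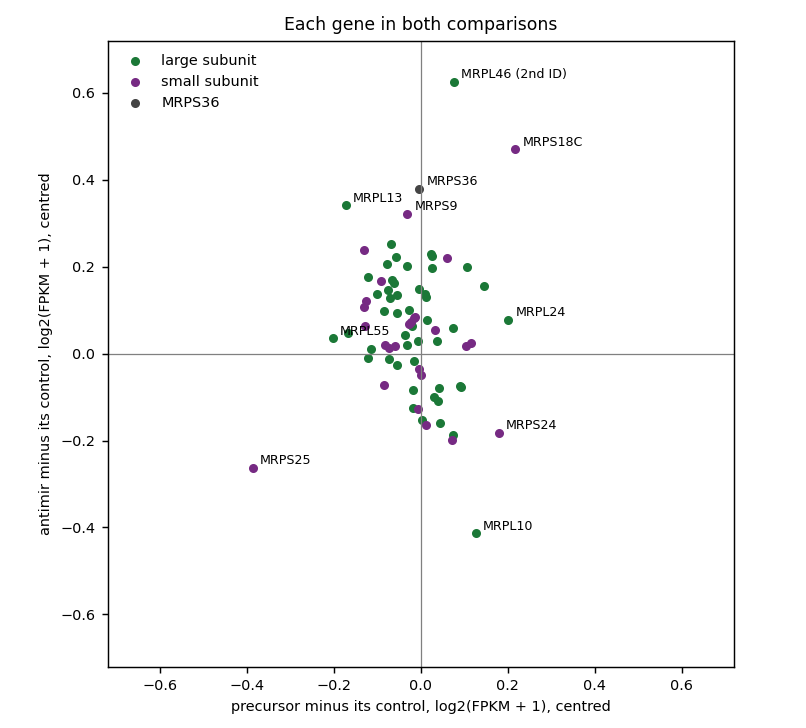
Each member's centred difference with the precursor (horizontal) and with the antimir (vertical), both of log2(FPKM + 1), coloured by subunit. MRPS18C is high and MRPS25 low on both axes, and the cloud as a whole shows no slope.

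By gene totals, the members with the 7-mer all stood below 0 with the precursor. The 8 had a median of -0.075 with the precursor and 0 of 8 lay above 0, against a median of -0.016 for the 68 members without it. Apart from MRPS25, the lowest of them was MRPS33 at -0.092, and MRPL42 at -0.0042 and MRPS11 at -0.00058 were next to 0. Without centring, 3 of the 8 lay above 0. The same sign was seen outside the members: 44.0% of 2297 other genes with the 7-mer and 53.4% of 8877 without it lay above 0, at medians of -0.021 and 0.013. With the antimir the 8 had a median of 0.096, against a median of 0.061 for the members without the 7-mer. Of the 8, 5 lay above 0, and of all 77 members 54 (70.1%), so the 8 were not above 0 more often. Other genes stood at -0.0036 with the 7-mer and -0.0024 without it, and 49.3% and 49.4% of them lay above 0. The length and level of these mRNAs were not matched, and their part in these differences was not tested. All of these values are gene totals, while the 7-mer was searched in a single transcript of each gene. For MRPS35 that transcript, ENST00000538315, was called higher in the authors' deposited table, at 30.5 FPKM with the precursor and 23.5 FPKM in its control.

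The upstream regions of the members were set beside these values. RefSeq windows of 250 bases before to 50 bases after a start site (GRCh38.p14) were at hand for 67 member genes and 15843 genes in all. Nuclear respiratory factor 1, GABP (an ETS factor) and YY1 are known as regulators of nuclear genes for mitochondria. Short cores of their motifs were searched on both strands: GCGCATG for NRF1, CCGGAAG for ETS factors, AAGATGG for YY1 and, as a general promoter element, ATTGG for the CCAAT box. None of these 4 motifs contains another. The ETS core was in the window of 29 of 67 member genes (43.3%), against 16.5% of all genes, and the YY1 core in 24 (35.8%), against 7.90%. The NRF1 core was in 7 (10.4%), against 6.82%, and the CCAAT box in 23 (34.3%), against 42.1%. Both the ETS and the YY1 core were in 13.4% of member genes, against 1.46% of all genes.

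Members were also set apart by the cores they hold. Members with the ETS core had a median of -0.0070 with the precursor and those without it -0.027, and with the antimir the values were 0.060 and 0.049. For the YY1 core they were -0.0045 with it and -0.027 without it for the precursor, and 0.068 and 0.060 for the antimir. The gap was widest for the NRF1 core with the antimir, though few members hold it: the 7 with it stood at 0.026 with the precursor and 0.18 with the antimir, against -0.025 and 0.042 for the 60 without it.

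The windows of MRPS18C and MRPS25 are shown because these genes were high and low in both comparisons, and that of MRPS12 because it holds several of the cores. All are 5′ to 3′ on the gene's strand, with the cores in capitals. MRPS18C (plus strand, chr4:83455808-83456107) holds an ETS core, a CCAAT box and an NRF1 core, in that order. MRPS12 (plus strand, chr19:38930694-38930993) holds a YY1 core on the other strand, 4 CCAAT boxes and an ETS core beside the start. The CCAAT boxes of both windows read CCAAT on the strand shown. MRPS25 (minus strand, chr3:15065266-15065565) holds none of the 4, which says only that these letters are not in this window.
MRPS18C: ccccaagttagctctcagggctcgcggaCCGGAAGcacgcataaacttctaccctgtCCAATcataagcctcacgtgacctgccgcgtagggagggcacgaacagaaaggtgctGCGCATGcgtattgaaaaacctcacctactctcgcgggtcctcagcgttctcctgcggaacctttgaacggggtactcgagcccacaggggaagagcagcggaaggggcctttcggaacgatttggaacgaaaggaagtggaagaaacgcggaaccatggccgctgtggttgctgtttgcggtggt
MRPS25: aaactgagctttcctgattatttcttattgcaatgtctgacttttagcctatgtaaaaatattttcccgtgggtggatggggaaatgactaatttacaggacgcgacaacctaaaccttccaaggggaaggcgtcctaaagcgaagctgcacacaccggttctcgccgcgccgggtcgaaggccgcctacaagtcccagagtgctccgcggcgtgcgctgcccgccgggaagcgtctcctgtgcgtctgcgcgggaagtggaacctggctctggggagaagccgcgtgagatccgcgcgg
MRPS12: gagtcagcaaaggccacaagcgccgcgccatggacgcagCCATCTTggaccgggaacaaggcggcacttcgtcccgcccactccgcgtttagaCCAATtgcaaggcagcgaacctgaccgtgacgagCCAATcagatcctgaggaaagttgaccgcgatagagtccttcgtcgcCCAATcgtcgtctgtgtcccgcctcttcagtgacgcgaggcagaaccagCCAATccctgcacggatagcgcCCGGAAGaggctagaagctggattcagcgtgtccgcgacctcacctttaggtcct

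Many member genes lie back to back with another gene. A protein-coding start on the opposite strand within 1000 bases upstream was found for 19 of 67 member genes (28.4%), against 12.3% of all genes. MRPS12 starts 181 bases from SARS2, the mitochondrial seryl-tRNA synthetase, and MRPL46 starts 320 bases from MRPS11. With the antimir the differences of members and partners went together across the 19 pairs, with Pearson's r of 0.65, and with the precursor r was -0.0085. The MRPL46 and MRPS11 pair enters from both sides, and partners share the libraries. With the antimir the pair of MRPS18C and HELQ was the highest on both sides. The r was not taken without it, nor over such pairs of all genes. MRPS18C starts 175 bases from HELQ, a DNA helicase. HELQ had 6.75 FPKM with the antimir and 4.63 FPKM in its control, a difference of 0.50, next to 0.47 for MRPS18C. With the precursor HELQ had 7.82 FPKM, against 8.06 FPKM in the precursor control, a difference of -0.061, next to 0.22 for MRPS18C.

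Single transcripts of the members were looked at next. The 78 members had 492 transcripts, with a median of 5.5 per gene and at most 36, and the most abundant transcript held a median of 54.4% of its gene's FPKM in the precursor comparison and 60.0% in the antimir comparison. Transcripts that GENCODE 29 calls protein-coding held 59.7% of the members' FPKM with the precursor and 59.4% in its control, and 67.2% with the antimir and 67.9% in its control. Retained introns held 10.1% with the precursor and 10.5% in its control, and 8.503% with the antimir and 7.94% in its control.

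In the authors' deposited table for the precursor, 395 member transcripts were tested and 21 were called higher and 21 lower (5.32% each). Over all 78175 tested transcripts of the authors' deposited table, 6.91% were called higher and 6.66% lower, so the members' shares are near the background and a little under it. These calls compare 1 library with 1 library and carry no replicate error. They fell in 28 members, 8 of which had calls in both directions, and 13 of the 42 called transcripts were listed at 0 in 1 of the 2 libraries. In the authors' deposited table for the antimir, none of 361 tested member transcripts was called (lowest unadjusted p 0.00192, lowest q 0.242), against 0.243% of 62029 transcripts called higher and 0.171% called lower.

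The called transcripts named here were chosen after their values were seen, apart from those of the genes already named. For MRPS25 the authors' deposited table called lower ENST00000474866, a processed transcript, at 2.16 FPKM with the precursor and 6.30 FPKM in its control (q = 0.00048). Its protein-coding transcript ENST00000253686 had 2.94 FPKM with the precursor and 3.46 FPKM in its control and was not called in the authors' deposited table. The 7-mer shown above for MRPS25 lies in this transcript. The MRPS25 total was 28.5 FPKM with the precursor and 36.9 FPKM in its control, so most of it sat in other transcripts. For MRPS18C the authors' deposited table called higher the protein-coding ENST00000507349, at 35.7 FPKM with the precursor and 24.9 FPKM in its control (q = 0.0438). With the antimir that same transcript had 25.2 FPKM, against 23.9 FPKM in the antimir control. The excess of MRPS18C with the antimir sat in other transcripts: the retained intron ENST00000514581 had 27.1 FPKM with the antimir and 16.3 FPKM in its control, and ENST00000505719 had 15.2 FPKM with the antimir and 8.42 FPKM in its control.

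The lowest q of any member in the authors' deposited table was that of MRPS35 ENST00000321446, listed at 0 with the precursor and at 12.0 FPKM in its control (q = 2.18e-44). The gene's total hardly differed, with 218 FPKM with the precursor and 228 FPKM in its control, and another transcript of it, ENST00000538315, was called higher in the authors' deposited table at 30.5 FPKM with the precursor and 23.5 FPKM in its control. How reads were assigned among overlapping transcripts was not tested. MRPL1, a large-subunit protein with a bacterial counterpart, also had calls in both directions. Its protein-coding ENST00000502384 had 1.13 FPKM with the precursor and 8.64 FPKM in its control (q = 5.44e-14 in the authors' deposited table), while its processed transcript ENST00000504901 had 13.6 FPKM with the precursor and 8.21 FPKM in its control (q = 0.0124 in the authors' deposited table). The MRPL1 total was 98.0 FPKM with the precursor and 102 FPKM in its control.

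**Figure D4:**
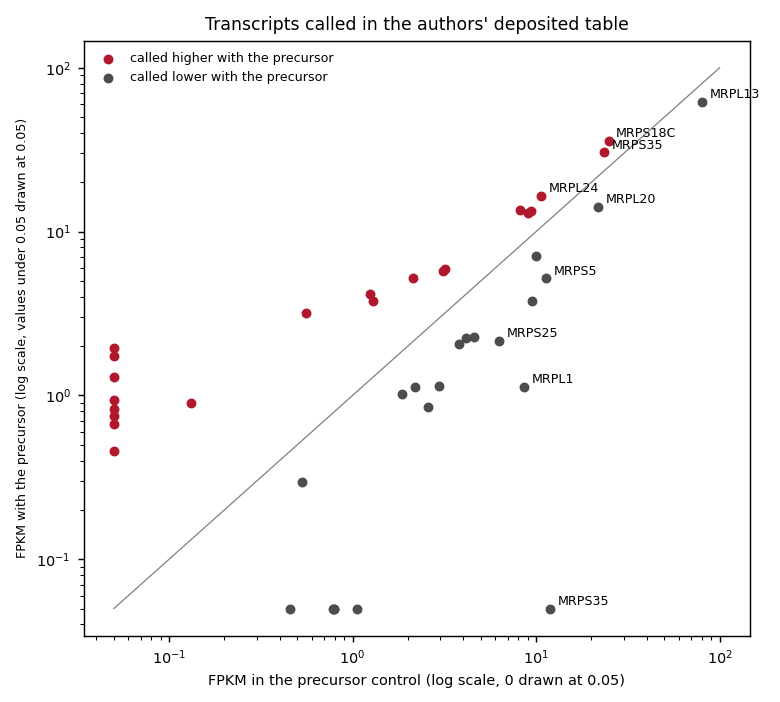
FPKM of the 42 member transcripts called in the authors' deposited table for the precursor, with the precursor (vertical) against its control (horizontal), both on log axes, with values under 0.05 drawn at 0.05. Red points were called higher and grey points lower, and the line marks equal values. Points at an edge of the plot are transcripts listed at or near 0 in 1 library.

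Each table also holds an entry per gene identifier that looks like the whole unspliced locus, although no source says how it was made. These entries were not summed into the genes. Of the 72 member entries that differed with the precursor, 66 were lower (91.7%), against 75.2% lower among 27558 other such entries. Their sum was 25.2 FPKM with the precursor and 29.97 FPKM in its control. With the antimir 26 of 72 were lower (36.1%), against 43.3% of 23267 others, and the sum was 29.95 FPKM with the antimir and 27.8 FPKM in its control.

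Other genes of mitochondrial translation were followed by lists. The 7 proteins of the same ribosome that carry other symbols, DAP3 and PTCD3 among them, had 3 above 0 with the precursor and 6 with the antimir, at medians of -0.032 and 0.043. The largest differences among them were PTCD3 at -0.16 with the precursor and CHCHD1 at 0.19 with the antimir. No gene of this list was past 1.5-fold in either comparison. Of the translation factors, 8 of 16 lay above 0 with the precursor and 9 of 15 with the antimir, at medians of -0.00086 and 0.041. MTRF1, a release factor, had 18.9 FPKM with the precursor and 24.9 FPKM in its control, a difference of -0.40. C12orf65, a factor of ribosome rescue, had 2.72 FPKM with the antimir and 2.02 FPKM in its control, a difference of 0.34, and stood at 0.28 with the precursor. OXA1L, which inserts the products into the inner membrane, had 33.4 FPKM with the antimir and 40.0 FPKM in its control, a difference of -0.21. No translation factor was past 1.5-fold.

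Assembly factors of the mitochondrial ribosome had 8 of 26 above 0 with the precursor and 9 of 26 with the antimir, at medians of -0.047 and -0.015. MTERFD1, a factor of large-subunit assembly, had 11.1 FPKM with the precursor and 16.3 FPKM in its control, a difference of -0.54, and -0.013 with the antimir. TFB1M, which methylates the small-subunit RNA, had 26.9 FPKM with the precursor and 17.7 FPKM in its control, a difference of 0.56. With the antimir TFB1M had 11.5 FPKM, against 16.7 FPKM in the antimir control, a difference of -0.46. METTL17, needed for the small subunit, stood at -0.30 with the precursor and 0.14 with the antimir. No assembly factor was past 1.5-fold on the centred log2(FPKM + 1) scale, where TFB1M with the precursor lay just under that threshold of 0.58.

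The mitochondrial aminoacyl-tRNA synthetases, which charge the tRNAs, had 5 of 17 above 0 with the precursor and 12 of 16 with the antimir, at medians of -0.025 and 0.071. VARS2 had 6.17 FPKM with the antimir and 3.82 FPKM in its control, a difference of 0.61, and was the 1 gene of this list past 1.5-fold. WARS2 stood at 0.25 with the precursor and -0.36 with the antimir, and CARS2 at -0.041 and -0.35. Regulators of mitochondrial genes had 3 of 13 above 0 with the precursor and 6 of 13 with the antimir, at medians of -0.077 and -0.018. Among them TEFM, a mitochondrial elongation factor of transcription, stood at -0.23 with the precursor and 0.26 with the antimir, and NRF1 itself at -0.099 and -0.25.

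The mitochondrial ribosomal proteins did not follow 2 other groups, the cytosolic ribosomal proteins and the mitochondrially encoded mRNAs. The 82 cytosolic ribosomal protein genes past the filter had 60 above 0 with the precursor, at a median of 0.061, and 3 of 78 above 0 with the antimir, at a median of -0.19. The 12 mitochondrially encoded mRNAs listed, which this ribosome reads, do not include MT-ATP8. These 12 were all above 0 with the precursor, at a median of 0.33, and all below 0 with the antimir, at a median of -0.32. MT-ND5, a subunit of complex I, had 1356 FPKM with the precursor and 1011 FPKM in its control, and 821 FPKM with the antimir and 1225 FPKM in its control. The members' medians of -0.018 with the precursor and 0.063 with the antimir lie on the other side of 0 from those of both groups in each comparison, but without centring the members' median with the precursor was 0.0048, on the same side. With 1 library per group this is a description, and whether the libraries differed in how RNA was taken or selected was not tested.

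**Figure D5:**
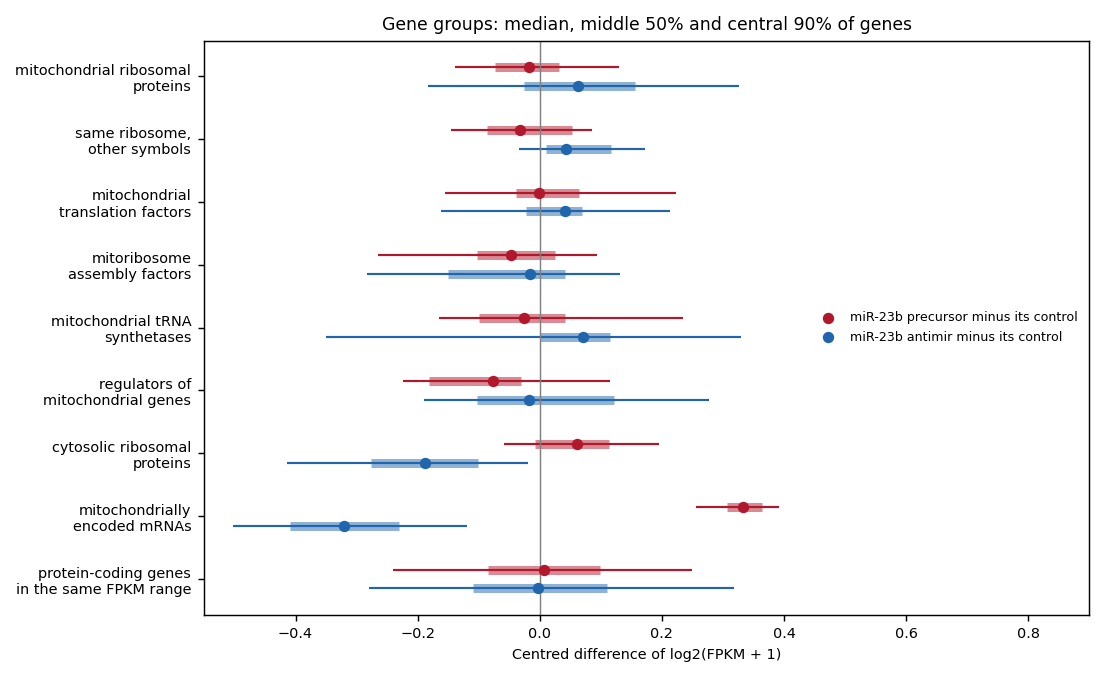
Median (point), middle 50% (thick bar) and central 90% (line) of the centred differences of log2(FPKM + 1) over the genes of each group past the filter, with the precursor in red and the antimir in blue. Genes, not replicates, make the bars. Mitochondrial ribosomal proteins lie near 0, cytosolic ribosomal proteins slightly right of 0 with the precursor and left of it with the antimir, and mitochondrially encoded mRNAs further out on the same sides.

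Markers of colon epithelium were split. Of 11 markers of colon epithelium, 8 had at least 100 FPKM in every library, among them EPCAM, CDH1, KRT8, KRT18 and KRT19, which other epithelia also express, and the other 3 (CDX1, CDX2 and CEACAM5) were at or under 2.87 FPKM in every library. The 12 markers of fibroblasts, blood cells and endothelium summed to 4.53 FPKM with the precursor and 3.72 FPKM in its control, and to 3.04 FPKM with the antimir and 4.17 FPKM in its control. Between 5 and 7 of the 12 were listed at 0 in each library. The deposited values carry no read counts, so depth is unknown and no counting interval is given.

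Some entries hold reads that may belong elsewhere. For 71 of the 78 identifiers, GENCODE 29 matched the gene as protein-coding and gave no transcript of it to another gene. Over these 71, 26 lay above 0 with the precursor and 50 with the antimir, at medians of -0.018 and 0.063, and none was past 1.5-fold. The MRPL12 entry also holds transcripts of SLC25A10, a neighbouring carrier gene. The MRPL12 transcript itself, ENST00000333676, had 36.8 FPKM with the precursor and 30.7 FPKM in its control, and 29.1 FPKM with the antimir and 41.1 FPKM in its control. Mitochondrial ribosomal protein genes also have pseudogenes, picked here by symbol alone, of which 11 of 44 entries reached 1 FPKM in any library. MRPS36P1 was the highest at 22.5 FPKM with the precursor and 23.3 FPKM in its control, and 5.39 FPKM with the antimir and 4.46 FPKM in its control, so reads of MRPS36 may be split with it.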

How the data were processed

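RNA was sequenced from 4 HT29 cultures, 1 library per group. Per the submitters' processing notes, bcl2fastq 1.8.3, TopHat2 2.0.11, Cufflinks 2.2.0, Cuffdiff and the build hg19 were used. The sources used here give neither their settings nor the annotation. For each comparison the authors deposited a table with FPKM per transcript of a treated and a second library. The second library's name ends in N, and it was taken as the control. The deposited p-value and q-value compare single libraries. The deposited log2 fold change runs control over treated and was not used, nor was the deposited test score.

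From these values, transcripts whose status was not a failure were summed per gene identifier. No member transcript had failed. Genes without a transcript entry, such as the mitochondrially encoded ones, used their gene-identifier entry. Differences of log2(FPKM + 1) were centred on the median of genes averaging 1 FPKM or more; the scale understates changes of low genes. A call is a 1.5-fold difference with no test, because 1 library per group leaves no replicate error. Python 3.11.15, pandas 2.3.3 and numpy 2.4.6 were used, and the code was tested on simulated data. GENCODE 29 was matched by identifier only.

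Members and lists were chosen with earlier results of these data known. Named members were the 6 highest and 6 lowest differences per comparison, the 6 most and 4 least abundant, those past 1.5-fold, those with a seed match, and up to 3 genes of other lists that differed most (some of them not given). MRPS12, HELQ, MRPL12, MRPS36P1, MRPL1 and MRPL19 fall outside this rule and were chosen after their values were seen. Alternatives were another pseudocount, other filters, other transcript choices and other centring.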

Additional observations from a re-analysis of the deposited data

How the results depend on the processing

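No paired analysis was possible because each group held 1 library, and for that reason no replicate could be left out either. Under 8 other ways of processing the members' medians kept within 0.05 of the values reported. For the precursor that margin is wider than the median itself, -0.018. This median was 0.0048 without centring and -0.00056 without a filter on low values, so its sign is not settled. Without centring, the share of members above 0 was 53.2% with the precursor and 57.1% with the antimir, against 37.7% and 70.1% as reported; by construction this puts back the shift removed. With the most abundant transcript alone, 1 member (MRPL55, -0.64) was at least 1.5-fold lower with the precursor and 2 were at least 1.5-fold higher with the antimir (MRPL19, 0.75, and the second MRPL46 identifier, 0.62). In the same setting MRPL10 was -0.33 and MRPL24 -0.025 with the precursor, where their totals were 0.13 and 0.20, MRPS25 was -0.095 and MRPS18C with the antimir 0.10; the cause was not tested. Leaving out the entries that GENCODE 29 gives in part to another gene, a choice made after seeing the data, took the count of members past 1.5-fold with the antimir to 0. Without a filter on low values the share above 0 was 48.7% with the precursor and 61.0% with the antimir. The exact 95% binomial intervals of the shares reported were 26.9% to 49.4% and 58.6% to 80.0%. These shares without a filter lie inside them, and those without centring lie outside. Such intervals treat genes as independent, which they are not, so they serve only as a yardstick and not as a measure of replicate error. Of the values of single genes, 478 of 496 kept within 0.1 of those reported. The 18 others all came from the most abundant transcript alone, where 44 kept within 0.1. That margin is wider than either shift removed by centring, and some values near 0 changed sign within it. The lack of replicates and of read counts limits all of these values, and a member's difference of the size seen here cannot be told from the difference between any 2 cultures.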
